A study of Mus musculus with 2 samples.

Results

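The genes described here build the actin cytoskeleton, its contractile parts and the vimentin filaments of cells, and they were read in chondrospheres, the colonies that single cartilage cells form in a viscous methylcellulose medium. The 10 genes were chosen by name: the cytoplasmic actins *Actb* and *Actg1*, the smooth muscle-type genes *Acta2*, *Tagln*, *Myl9* and *Cnn1*, the broadly expressed calponin *Cnn2*, the tropomyosins *Tpm1* and *Tpm2*, and the intermediate filament gene *Vim*. All 10 were among the 23628 genes listed. The data were 2 RNA-seq libraries, replicates 1 and 2, of 1 condition: femoral head cells of postnatal day 7 pups homozygous for a *Sox9* IRES-EGFP reporter, sorted as Sox9GFPHi (live, high in GFP, and negative for the endothelial marker CD31, the red cell marker Ter119 and the leukocyte marker CD45). According to the methods of the study the cells then grew for 3 to 4 weeks in 1% methylcellulose at 5% oxygen, in a medium with serum, FGF2, BMP4, IGF1, LIF and TGF-β1. GFP in this line reports the activity of the *Sox9* locus, so the sort selected cells by that locus and not by a cell type as such. The study harvested each pup as a separate biological replicate, but the sample labels do not tie a library to a pup. There was no untreated, freshly isolated or attached culture among the libraries, so no level below is set against one.

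Actin monomers polymerise into filaments that give a cell its shape, and non-muscle myosin II pulls on bundles of them to form stress fibres. Tropomyosins lie along the filament, calponins and transgelins bind its side, and the myosin light chains set the activity of the motor. Round chondrocytes in cartilage carry mostly a cortical actin network. When they are plated on a stiff surface they can flatten, build stress fibres, express smooth muscle α-actin and lose type II collagen, a change known as dedifferentiation.

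Values are CPM, the reads of a gene scaled to a common library total, which do not correct for the length of a transcript. Levels of different genes are therefore compared as CPM per kb of the longest protein-coding transcript. Low values moved in steps of 0.0231 and 0.0237 CPM in replicates 1 and 2, which corresponds to about 43300000 and 42200000 reads. The limit that a count of 0 allows, 3 reads, was thus 0.0693 and 0.0712 CPM. Over the 12631 genes averaging 1 CPM or more, replicate 2 exceeded replicate 1 by a median log2 ratio of 0.30, with an SD of 0.83 across genes, and ratios between the libraries are given below relative to that median. The share of all CPM held by the 10 highest genes was 43.4% and 34.7%. *Col2a1*, the type II collagen of cartilage, stood at 148953 CPM in replicate 1 against 100682 CPM in replicate 2, and *Acan*, the aggrecan core protein, at 14170 and 12002 CPM, so the cartilage label was borne out by its markers in both libraries.

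The levels of the members fell step by step from the cytoplasmic actins to calponin 1. Together the 10 genes made up 0.159% and 0.299% of the CPM of replicates 1 and 2, a mean of 0.229% ± 0.0997 (SD, n = 2). Per kb, *Actb*, *Actg1*, *Vim*, *Tpm1* and *Acta2* came in that order in both libraries. Below them the order depended on the library: *Tagln*, *Tpm2* and *Cnn2* in replicate 1, and *Cnn2*, *Tpm2* and *Tagln* in replicate 2. *Myl9* and *Cnn1* were last in both. The mean level ran from 392 ± 180 CPM per kb for *Actb* (SD, n = 2) to 0.649 ± 0.570 CPM per kb for *Myl9* (SD, n = 2), with *Cnn1* below that and listed at 0 in replicate 2.

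Several neighbours in this order did not differ beyond their spread. The log2 ratio per kb of *Actg1* to *Vim* was 0.55 in replicate 1 and 0.03 in replicate 2, and its mean of 0.29 was smaller than its SD of 0.37 (n = 2). That of *Cnn2* to *Tagln* was −1.99 and 2.54, and that of *Tagln* to *Tpm2* was 0.60 and −0.16, so both pairs changed places between the libraries. *Vim* lay above *Tpm1* by 2.12 and 2.23 on the log2 scale per kb, the step largest beside its spread (2.18 ± 0.08, SD, n = 2). *Tpm1* lay above *Acta2* by 0.74 ± 0.15 (SD, n = 2) on the same scale, but the order of this pair turned when all annotated exons of a gene were taken as its length (−0.31).

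**Figure D1:**
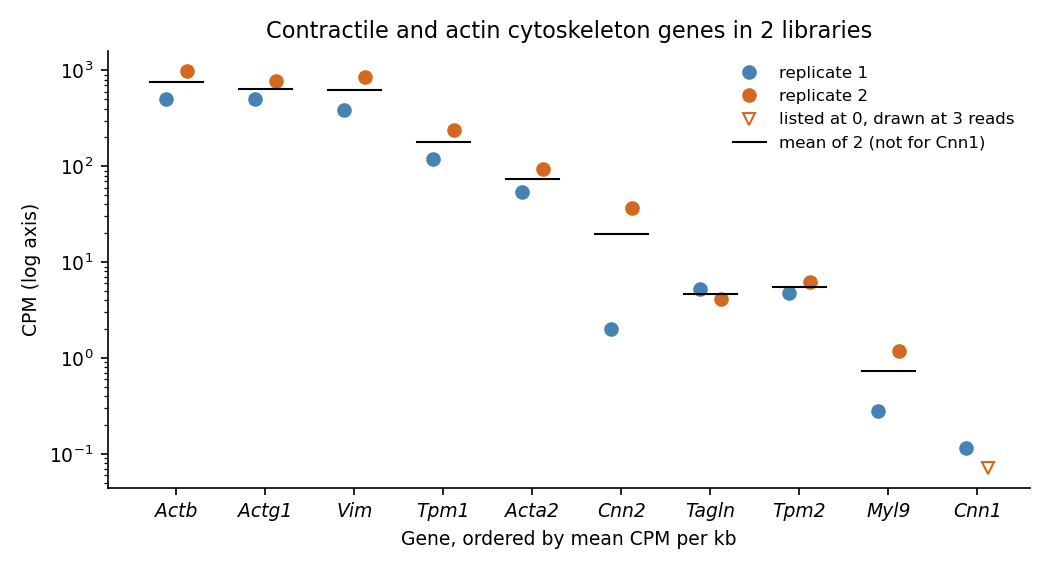
CPM on a log axis of the 10 genes in replicate 1 (blue) and replicate 2 (orange), ordered by mean CPM per kb, with the mean of the 2 libraries as a bar except for *Cnn1*, which is listed at 0 in replicate 2 and drawn there at the 3-read limit. *Actb*, *Actg1*, *Vim* and *Tpm1* lie above 100 CPM in both libraries, *Tagln* alone with a value above 0 in both is lower in replicate 2, and *Cnn2* has the widest gap, from 2.03 to 37.0 CPM.

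The cytoplasmic actins form the filaments of nearly every cell outside muscle. *Actb*, β-actin, was at 508 CPM in replicate 1 against 996 CPM in replicate 2 (752 ± 345 CPM, SD, n = 2). *Actg1*, γ-actin, was at 506 and 770 CPM (638 ± 187 CPM, SD, n = 2). In replicate 1 they were nearly level, and in replicate 2 *Actb* was the higher. Per kb, *Actg1* stood at 98.1% of *Actb* in replicate 1 and 76.1% in replicate 2. On the log2 scale this is −0.21 ± 0.26 (SD, n = 2) and did not exceed the spread between the libraries.

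The coding sequences of these actins are alike, which bears on how their reads were shared out. The last 60 coding bases of the 3 actin members are printed to show this, 5′ to 3′ including the stop codon, from the annotated transcripts of the GRCm38 mouse genome. *Actb* lies at chr5:142903115-142906754, *Actg1* at chr11:120345690-120348542 and *Acta2* at chr19:34241090-34255590, all on the minus strand. Capitals mark bases that differ from *Actb*.
Actb: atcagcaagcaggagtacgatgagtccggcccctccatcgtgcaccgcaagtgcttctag
Actg1: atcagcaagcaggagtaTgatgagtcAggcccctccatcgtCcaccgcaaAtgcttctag
Acta2: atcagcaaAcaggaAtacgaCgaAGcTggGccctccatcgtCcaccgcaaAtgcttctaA
*Actg1* differs from *Actb* at 4 of these 60 bases and *Acta2* at 10. Over 1128 aligned coding bases *Actb* and *Actg1* were 88.7% identical, with a longest identical run of 62 bases, which is longer than the 50-base reads. Even so, only 30 windows of 50 bases in the longest coding transcript of each occurred in a transcript of the other. These were 1.60% of the windows of *Actb* and 1.58% of those of *Actg1*. *Actb* and *Acta2* were 83.0% identical and *Actg1* and *Acta2* 81.6%.

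Other annotated genes, many of them processed pseudogenes, hold further copies. Of the 1903 windows of 50 bases in the longest coding transcript of *Actg1*, 1079 (56.7%) occurred also in a transcript of another gene. The pseudogene *Gm12715* alone held 51.1% of them, and it was listed at 86.2 CPM in replicate 1 against 176 CPM in replicate 2. With *Gm12715* added to *Actg1*, the log2 ratio per kb to *Actb* became 0.20 in replicate 1 and −0.10 in replicate 2. *Actb* shared 14.2% of its 1871 windows and *Acta2* 0.352% of 1986, while the other 7 members shared none, so *Actg1* was the member with the most shared windows. *Lrrc58*, at 87.9 and 128 CPM, held 9.57% of the *Actb* windows. The ratio with *Gm12715* was not adjusted for reads shared on the *Actb* side.

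**Figure D2:**
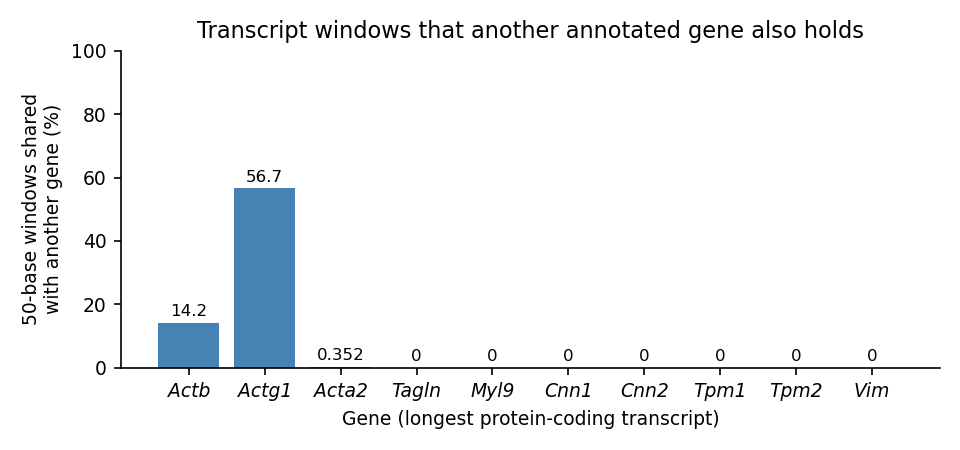
Percentage of the 50-base windows of each gene's longest protein-coding transcript that also occur, on the same strand, in an annotated transcript of another gene. *Actg1* shares 56.7% of its windows, *Actb* 14.2%, *Acta2* 0.352% and the other 7 genes 0.

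The smooth muscle-type members were unequal: α-actin was well above the others, and the calponin 1 marker was near the limit of detection. *Acta2*, smooth muscle α-actin, was at 53.4 CPM in replicate 1 against 93.0 CPM in replicate 2 (73.2 ± 28.0 CPM, SD, n = 2). *Tagln*, transgelin or SM22α, was at 5.24 and 4.12 CPM (4.68 ± 0.792 CPM, SD, n = 2). It was the only member with a value above 0 in both libraries that was lower in replicate 2. *Tagln* overlaps *Pcsk7* and the antisense gene *Gm48529* on the opposite strand, at 12.8 and 20.2 CPM and at 1.14 and 1.96 CPM. The libraries were stranded, but whether strand was used in counting is not given in the sources used here.

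*Myl9*, the regulatory light chain of smooth muscle myosin, was at 0.277 CPM in replicate 1, about 12 reads, and at 1.19 CPM in replicate 2, about 50 reads. Exact Poisson 95% intervals, from estimated reads rounded to whole numbers, were 0.143 to 0.484 CPM and 0.880 to 1.56 CPM, which do not overlap. *Cnn1*, calponin 1, was at 0.116 CPM in replicate 1, about 5 reads, with an interval of 0.0375 to 0.270 CPM, and was listed at 0 in replicate 2, where the interval reached 0.0875 CPM. These intervals overlap, so a difference in *Cnn1* was not detectable at this depth. Such intervals cover counting error only, and not variation between cultures or animals.

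Within each library, *Acta2* was a small part of the actin pool. Per kb it was 10.1-fold below *Actb* in replicate 1 and 11.4-fold below in replicate 2 (log2 ratio −3.42 ± 0.12, SD, n = 2). The sum of the 4 smooth muscle-type members stood at 5.69% of the sum of *Actb* and *Actg1* in replicate 1 and at 5.40% in replicate 2 (log2 ratio −4.17 ± 0.05, SD, n = 2). Before centring, replicate 2 exceeded replicate 1 on the log2 scale by 0.80 for *Acta2* and by 0.97 for *Actb*, so their CPM differed more between the libraries than their proportion. Among the smooth muscle-type members, *Acta2* was 7.99-fold above *Tagln* in replicate 1 and 17.7-fold in replicate 2, and 107-fold and 43.4-fold above *Myl9*, all per kb.

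The actins of other muscle types were low. *Acta1*, skeletal α-actin, was at 0.122 and 0.864 CPM, *Actc1*, cardiac α-actin, at 0.162 and 0.166 CPM, and *Actg2*, enteric smooth muscle γ-actin, at 0 and 0.0712 CPM. None of the 3 reached a mean of 1 CPM. *Acta2* was therefore the one muscle-type actin with more than 1 CPM in these libraries.

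Genes of the mature smooth muscle programme mostly averaged under 1 CPM, but *Smtn* exceeded *Acta2* per kb in both libraries. Of 10 such genes, 4 averaged 1 CPM or more. *Myh11*, the smooth muscle myosin heavy chain, was at 0.139 CPM and 0, *Des*, desmin, at 0.208 and 0.0474 CPM, and *Myocd*, the cofactor myocardin, was listed at 0 in both libraries. *Smtn*, smoothelin, was the highest per kb, at 260 and 188 CPM, and *Cald1*, caldesmon, which also has a form outside muscle, was at 57.7 and 121 CPM. *Synpo2* and *Itga8* were past 2-fold in opposite directions, relative to all genes: *Synpo2*, an actin-bundling protein, was at 11.4 CPM in replicate 1 against 0.878 CPM in replicate 2, and *Itga8*, an integrin α-chain, at 0.116 and 4.06 CPM.

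Markers of other cells that express smooth muscle genes were checked as whole lists. Of 7 pericyte and vascular smooth muscle markers listed, 3 averaged 1 CPM or more, and the sum of all 7, 542 and 625 CPM, came almost wholly from *Cspg4* at 538 and 619 CPM. *Rgs5* was at 0.116 and 0.641 CPM. The 9 skeletal muscle markers summed to 9.64 and 3.64 CPM, of which the troponin *Tnnt3* gave 9.01 and 2.18 CPM, while *Myod1* was at 0.0462 CPM and 0 and *Ckm* at 0.0924 CPM and 0. The 5 endothelial markers summed to 0.370 and 0.261 CPM, with *Pecam1*, which encodes the CD31 used in the sort, at 0.231 and 0.166 CPM and *Cdh5*, *Kdr* and *Tek* at 0. The 5 blood cell markers summed to 2.68 and 2.51 CPM, nearly all of it from *Cd68* at 2.56 and 2.40 CPM, with *Ptprc*, which encodes CD45, at 0.0231 and 0.0474 CPM. The 5 fibroblast markers summed to 2.40 and 2.86 CPM, with *Pdgfra* at 2.03 and 2.71 CPM and *Thy1* at 0.208 CPM and 0. In bulk RNA, fewer cells of a type and less RNA per cell cannot be told apart, so the levels do not say whether *Acta2* came from all cells or from a few.

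**Figure D3:**
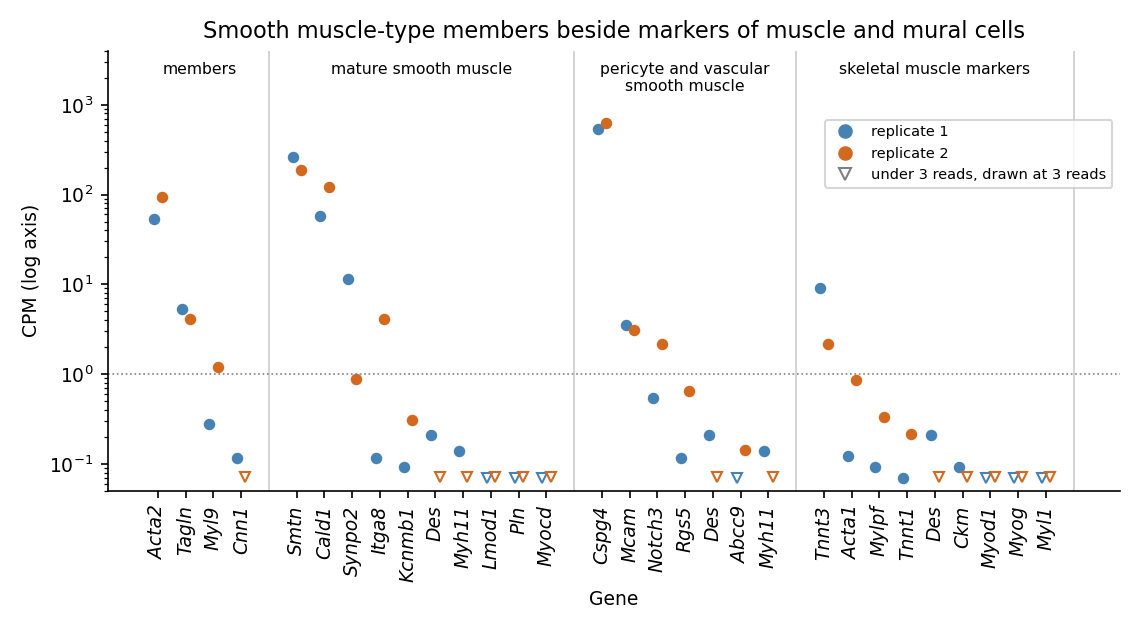
CPM on a log axis of the 4 smooth muscle-type members beside mature smooth muscle, pericyte and vascular smooth muscle, and skeletal muscle markers, in replicate 1 (blue) and replicate 2 (orange), with open triangles for values under 3 reads and a dotted line at 1 CPM. *Acta2*, *Smtn*, *Cald1* and *Cspg4* lie above 50 CPM in both libraries, while *Myh11*, *Des*, *Myocd*, *Myod1* and *Ckm* lie under 1 CPM in both.

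The calponin and tropomyosin members of broad expression held the member that differed most between the libraries. *Cnn2*, calponin 2, which binds actin in many non-muscle cells, was at 2.03 CPM in replicate 1, about 88 reads, and at 37.0 CPM in replicate 2, about 1558 reads. Relative to all genes it was 14.1-fold higher in replicate 2, a relative log2 ratio of 3.81, which was the 65th highest of 12631 genes. The mean of 19.5 CPM carried an SD of 24.7 (n = 2), so neither library stands for the other. *Cnn3*, calponin 3 or acidic calponin, was at 97.1 and 137 CPM and did not show this gap. Per kb it exceeded *Cnn2* by 57.4-fold in replicate 1 and by 4.44-fold in replicate 2. With *Cnn1* near 0, *Cnn3* was the highest calponin per kb in both libraries.

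*Tpm1*, α-tropomyosin, was at 118 CPM in replicate 1 against 238 CPM in replicate 2 (178 ± 85.0 CPM, SD, n = 2). *Tpm2*, β-tropomyosin, was at 4.71 and 6.26 CPM (5.49 ± 1.10 CPM, SD, n = 2). Per kb *Tpm1* exceeded *Tpm2* by 18.8-fold and 28.6-fold, and the remaining tropomyosin genes lay with *Tpm1* and not with *Tpm2*. *Tpm3* was at 118 and 196 CPM and *Tpm4* at 93.6 and 194 CPM, which per kb was 24.3-fold and 30.5-fold above *Tpm2* for *Tpm3* and 20.3-fold and 31.7-fold for *Tpm4*. The ratio of *Tpm1* to *Actb* per kb was the steadiest of all those computed, at 15.4% in replicate 1 and 15.9% in replicate 2 (log2 ratio −2.68 ± 0.03, SD, n = 2). The values sum all transcripts of a gene, so the muscle and non-muscle forms that splicing makes from *Tpm1* were not separated.

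In the same family as *Tagln*, *Tagln2*, the transgelin of broad expression, was at 14.7 and 29.3 CPM and per kb exceeded *Tagln* by 2.82-fold and 7.16-fold. *Tagln3*, the neuronal transgelin, was at 0.139 and 0.119 CPM. The broadly expressed paralogue was thus the higher one among transgelins, as among calponins and actins. The light chains gave the same order: *Myl12a*, the regulatory light chain of non-muscle myosin, was at 39.6 and 63.8 CPM and per kb 83.2-fold and 31.3-fold above *Myl9*.

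*Vim* encodes vimentin, the intermediate filament protein of mesenchymal cells, chondrocytes included. It was at 388 CPM in replicate 1 against 849 CPM in replicate 2 (619 ± 326 CPM, SD, n = 2). Per kb it stood at 66.9% of *Actb* in replicate 1 and 74.7% in replicate 2 (log2 ratio −0.50 ± 0.11, SD, n = 2). No other cytoplasmic intermediate filament gene of those listed was as high per kb, and keratins and desmin were near 0, with *Krt18* at 0 and 0.190 CPM.

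*Nes*, which encodes nestin, a filament protein of many progenitor cells, was at 3.81 CPM in replicate 1 against 150 CPM in replicate 2. It was 31.1-fold higher relative to all genes, and per kb *Vim* exceeded it by 284-fold in replicate 1 and 15.8-fold in replicate 2. *Plec*, plectin, which links filaments of different kinds, was at 67.5 and 207 CPM, and *Lmnb1*, the nuclear lamin B1, at 1.59 and 7.90 CPM. These 3 genes were past 2-fold higher in replicate 2, of 6 listed filament and linker genes averaging 1 CPM or more. None was past 2-fold lower, where 7.43% of all genes were past 2-fold higher and 6.06% lower. With 6 genes, the absence of a lower one is near that background. The list was written with earlier results of these libraries known, so the 3 higher genes are a description. *Lmna*, lamin A, was the highest of that list per kb, at 192 and 351 CPM and was not past 2-fold.

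The comparison that 2 libraries of 1 condition allow is how far they differ. A gene was counted as past 2-fold when its log2 ratio relative to the median of all genes exceeded 1 in either direction, with 0.1 CPM added to each value. Of all 12631 genes, 938 (7.43%) were past 2-fold higher in replicate 2 and 766 (6.06%) past 2-fold lower. Of the 10 members 8 averaged 1 CPM or more, and of these 1, *Cnn2*, was past 2-fold higher and 0 were lower. With 1 library on each side no test was possible, and a count of 1 of 8 is too small to set apart from that background.

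Most of the remaining members lay above the median of all genes by less than 2-fold. The relative log2 ratio was 0.83 for *Vim*, 0.71 for *Tpm1*, 0.67 for *Actb*, 0.50 for *Acta2*, 0.30 for *Actg1* and 0.10 for *Tpm2*. It was −0.64 for *Tagln*. Thus 7 of 8 were above 0, with a median of 0.58, where the median over all genes is 0 by construction. The counting error of these ratios was small beside them for the high genes, with a standard error of 0.012 for *Actb* and 0.013 for *Vim* on the log2 scale, and larger for *Tpm2* at 0.13 and *Tagln* at 0.15. In CPM as deposited, without the centring, 8 of 10 members were higher in replicate 2, and *Tpm1* and *Vim* were past 2-fold as well as *Cnn2*. The same change of scale moved the background from 938 higher and 766 lower to 1435 higher and 468 lower, so that 75.4% and not 55.0% of the genes past 2-fold were higher in replicate 2. The proliferation genes *Mki67* and *Top2a*, picked after their values were seen, moved with this difference, from 8.13 to 50.8 CPM and from 9.31 to 50.8 CPM, and their part in it was not tested.

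**Figure D4:**
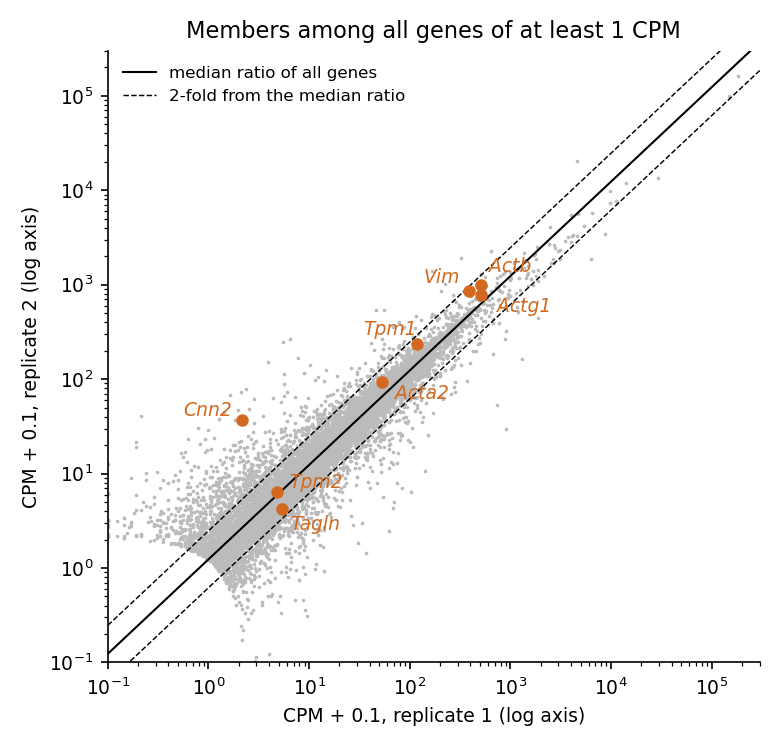
CPM plus 0.1 in replicate 2 against replicate 1 on log axes for the 12631 genes averaging 1 CPM or more (grey) and the 8 members among them (orange), with a solid line at the median ratio and dashed lines 2-fold from it. *Cnn2* lies outside the dashed lines, *Actb*, *Actg1*, *Vim*, *Tpm1*, *Acta2* and *Tpm2* lie above the solid line and inside them, and *Tagln* lies below the solid line.

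The related lists, which cover actin turnover and anchoring but also myosin, smooth muscle genes, the YAP and TAZ pathway and other intermediate filaments, held 98 names in all, of which 84 averaged 1 CPM or more. Of these, 15 (17.9%) were past 2-fold higher in replicate 2 and 3 (3.57%) past 2-fold lower, against the 7.43% and 6.06% of all genes. The median relative log2 ratio of the 84 was 0.39, and 65 were above 0. These lists were written with earlier results of the same libraries known, so the shares are a description.

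Non-muscle myosin II is the motor of the cortex and of stress fibres. *Myh9*, its heavy chain A, was at 187 CPM in replicate 1 against 426 CPM in replicate 2. *Myh10*, heavy chain B, was at 14.2 and 36.4 CPM and past 2-fold higher, while *Myh14*, heavy chain C, was at 15.2 and 4.32 CPM and past 2-fold lower. *Myh9* exceeded *Myh10* per kb by 13.8-fold and 12.3-fold, so heavy chain A led in both libraries.

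The genes of filament turnover and branching had 0 members past 2-fold lower, a count near the background in lists this short, since 6.06% of all genes were lower. Of 11 turnover genes, *Tmsb4x* and *Tmsb10*, the thymosins that bind actin monomers, were past 2-fold higher, at 40.5 and 108 CPM and at 62.2 and 213 CPM. *Cfl1*, cofilin, which severs filaments, was at 140 and 275 CPM. Of 8 genes of the ARP2/3 complex, which starts filament branches, 1 was past 2-fold higher, *Arpc1b*, at 77.4 and 229 CPM. The higher counts of both lists are too small to set apart from the 7.43% of all genes that were past 2-fold higher. All 8 genes of the complex had a relative log2 ratio above 0, where 50.0% of all genes did by the centring. *Actr3*, one of its actin-related subunits, was at 118 and 203 CPM.

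The 17 genes of focal adhesions and filament crosslinking, which tie actin to integrins, were all at or above a mean of 1 CPM. *Actn4*, α-actinin 4, was at 289 and 657 CPM, and *Actn1*, α-actinin 1, at 348 and 377 CPM. Per kb *Actn1* was the higher of the pair in replicate 1 and *Actn4* in replicate 2. *Vcl*, vinculin, was at 18.6 and 58.5 CPM and *Fhl2*, a LIM domain protein, at 4.07 and 12.8 CPM, and both were past 2-fold higher. *Tns1*, tensin 1, was past 2-fold lower, at 45.1 and 22.0 CPM. These counts among 17 genes are near the shares over all genes, 7.43% higher and 6.06% lower.

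**Figure D5:**
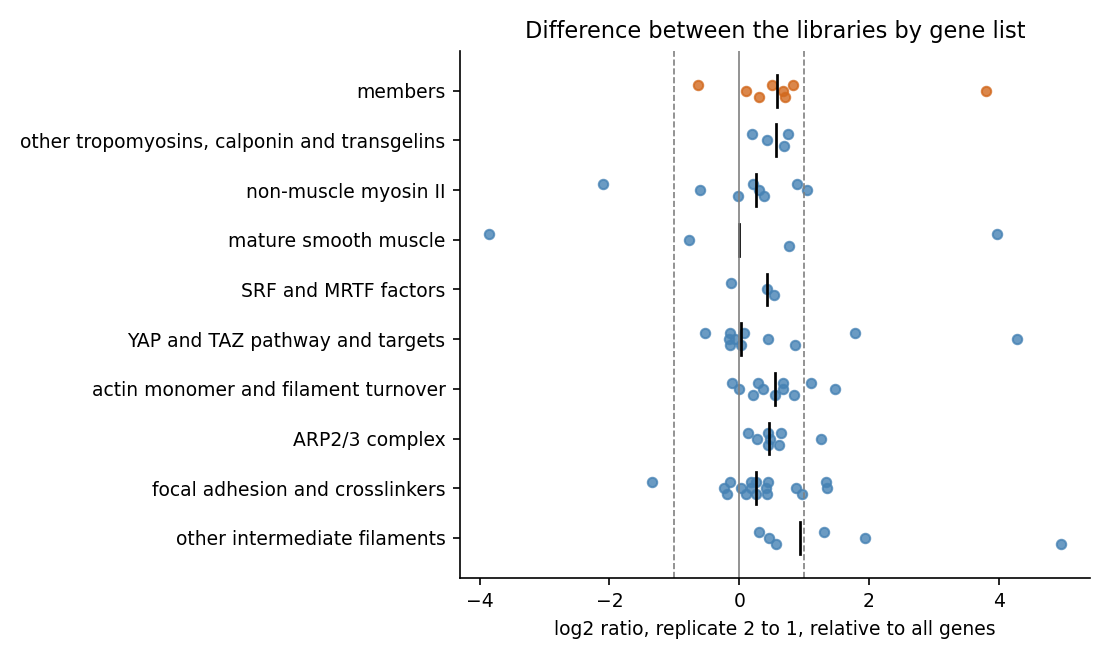
Relative log2 ratio of replicate 2 to replicate 1 for the 8 members (orange) and for genes of 9 related lists (blue) averaging 1 CPM or more, each point 1 gene, with a black tick at the median of each list, a solid line at 0 (the median of all genes) and dashed lines at 2-fold. The median of the members is 0.58 and that of the ARP2/3 complex 0.46, that of the mature smooth muscle genes lies at 0, and *Nes*, *Tead2*, *Itga8* and *Cnn2* are the points farthest to the right.

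Serum response factor (SRF) with its actin-sensing cofactors, the myocardin-related factors, drives many contractile genes by way of a DNA element called the CArG box. *Srf* was at 13.3 CPM in replicate 1 against 23.7 CPM in replicate 2. *Mrtfa* was at 15.1 and 25.1 CPM and *Mrtfb* at 23.7 and 27.0 CPM, and none of the 3 was past 2-fold. *Myocd*, the member of the family found in smooth and cardiac muscle, was listed at 0.

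The promoters of the members were searched for the CArG box, CC, then 6 bases of A or T, then GG. This pattern, though not every match to it, is the same on both strands. The search covered the RefSeq windows of GRCm38.p6 that run from 250 bases before to 50 bases after each start. A window was given for 8 of the 10 members, not for *Actb* and *Tagln*. The box was found in 3 of the 8, against 535 of 32851 windows (1.63%) in all. The 3 matches are printed because their genes differed widely in level, each 5′ to 3′ along the gene's strand with the box in capitals and 20 bases on each side.
Actg1, chr11:120348556-120348605, minus strand: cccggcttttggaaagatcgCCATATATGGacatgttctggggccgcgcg
Myl9, chr2:156775283-156775332, plus strand: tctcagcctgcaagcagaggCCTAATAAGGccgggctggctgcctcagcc
Cnn2, chr10:79988524-79988573, plus strand: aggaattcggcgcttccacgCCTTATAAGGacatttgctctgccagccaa
The box lies 90 to 81 bases before the start of *Actg1*, 161 to 152 before that of *Myl9* and 56 to 47 before that of *Cnn2*. The genes with it were *Actg1* at 259 and 395 CPM per kb, *Cnn2* at 0.827 and 15.0, and *Myl9* at 0.246 and 1.05. Whether the box bears on these levels was not tested. *Acta2*, *Cnn1*, *Tpm1*, *Tpm2* and *Vim* had no match in their windows, which says only that these letters are not there.

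YAP and TAZ are cofactors that answer to cell spreading and tension. *Yap1* was at 49.0 and 82.5 CPM and *Wwtr1*, which encodes TAZ, at 153 and 192 CPM. Their widely used targets were unequal: *Ankrd1* was at 0.208 and 0.214 CPM, *Ccn1* was at 197 and 441 CPM, and *Ccn2*, connective tissue growth factor, which cartilage also expresses by itself, at 3732 and 3209 CPM. Of 11 genes averaging 1 CPM or more, *Tead2* and *Tead4*, of the TEAD factors that YAP and TAZ bind, were past 2-fold higher, from 0.254 to 8.42 CPM and from 2.50 to 11.0 CPM, and 0 were lower. Of all genes 7.43% were past 2-fold higher and 6.06% lower, and counts this small cannot be set apart from those shares.

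Set against the cartilage genes of the same library, the cytoskeletal members were minor transcripts, and less so in replicate 2. Per kb, *Col2a1* exceeded *Actb* by 110-fold in replicate 1 and 38.0-fold in replicate 2. It exceeded *Vim* by 165-fold and 50.9-fold (log2 ratio of *Vim* to *Col2a1* −6.52 ± 1.20, SD, n = 2). It exceeded *Acta2* by 1112-fold and 432-fold (log2 ratio of *Acta2* to *Col2a1* −9.44 ± 0.97, SD, n = 2). The 3 ratios moved the same way, and they share *Col2a1*, whose own relative log2 ratio was −0.87.

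*Sox9*, the cartilage transcription factor whose reporter defined the sort, was at 252 CPM in replicate 1 against 279 CPM in replicate 2 and gives a reference of nearer level. Per kb *Actb* was 4.34-fold and 7.70-fold above *Sox9* and *Vim* 2.90-fold and 5.75-fold above it. *Acta2* was at 43.0% of *Sox9* in replicate 1 and at 67.8% in replicate 2. *Col1a1*, the type I collagen chain that dedifferentiated chondrocytes express, went the other way from *Acta2*: it was at 1166 and 584 CPM and past 2-fold lower in replicate 2. Per kb *Acta2* stood at 13.3% of *Col1a1* in replicate 1 and at 46.4% in replicate 2. The other type I chain, *Col1a2*, was at 2714 and 2620 CPM, with a relative log2 ratio of −0.35.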

How the data were processed

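Per the labels and the methods of the study, stranded libraries of poly(A) RNA were sequenced as single-end reads of 50 bases. The authors aligned reads to GRCm38 (mm10) with STAR 2.7.3a, quantified genes against GENCODE M25 with Partek E/M (Partek Flow 10.0.21.0801) and deposited CPM, without length correction. Each deposited CPM value carried an offset of 0.0001, which was subtracted. Only 64.4% and 63.4% of low values in the libraries came out as whole reads (within 0.02 of a read), so no count model was fitted to compare the libraries. The Poisson intervals of *Myl9* and *Cnn1* and the standard errors of counting used reads estimated from the CPM steps, and are approximate for that reason.

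Ratios between the libraries used 0.1 CPM as the pseudocount and genes averaging 1 CPM or more, and were centred on the median of all such genes. With 2 libraries of 1 condition there was no group comparison and no p-value. The ratio step was tested on simulated reads that differed by counting error and by a set of changed genes. Variation between cultures was not simulated, so that test does not bear on the counts past 2-fold given here. Lengths and windows came from the GENCODE M21 annotation on GRCm38. Calculations used Python 3.11.15 with numpy 2.4.6, pandas 2.3.3 and scipy 1.17.1.

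The members and lists were chosen with earlier results of these data known. All members were named. Of each related list the highest gene by mean CPM, the gene with the largest ratio, the set regulators and markers, and short sets past 2-fold were named. A related list that enters the totals over all lists is not reported here by gene.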

Additional observations from a re-analysis of the deposited data

How the results depend on the processing

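Of 81 values recomputed for 18 results, 63 stayed within the spread or within 1.5 times of the main count, 18 moved and 0 reversed. The spread was the SD of 2 libraries for shares, ratios within a library and member levels. For the median relative log2 ratio of the members it was the larger 95% counting error of the 2 members nearest that median. Part of the 63 was fixed in advance: a share, ratio or member level from 1 library lies within 1 SD of the mean of 2. Shares, CPM levels and counts cannot change sign, so 0 reversed speaks only for the log2 ratios. The order of *Tpm1* and *Acta2*, which turned with all annotated exons as the length, was not among the 18 results. Leaving out either library gave 0.159 to 0.299% for the share on the members, −3.51 to −3.33 for the log2 ratio of *Acta2* to *Actb*, −4.21 to −4.13 for smooth muscle-type members to cytoplasmic actins, −10.12 to −8.75 for *Acta2* to *Col2a1* and −7.37 to −5.67 for *Vim* to *Col2a1*, each by arithmetic within 1 SD of the mean of 2. With all annotated exons as the length, *Acta2* to *Actb* was −3.05 and smooth muscle-type members to cytoplasmic actins −3.83, which became −4.30 with *Gm12715* added to *Actg1*, an alternative chosen after seeing the data. Without division by length, *Acta2* to *Col2a1* was −10.76 and *Vim* to *Col2a1* −7.74. Leaving the 10 highest genes out of the total raised the member share to 0.368% and the median relative log2 ratio of the members to 0.69. It also raised the mean CPM of 7 members, among them *Actb* from 752 to 1207, *Acta2* from 73.2 to 118 and *Vim* from 619 to 990, by more than 1 SD. With CPM as deposited that median was 0.89, and 3 members were past 2-fold. With no filter on the mean, chosen after seeing the data, 3 were past 2-fold (*Cnn2*, *Myl9* and *Cnn1*). The related lists held 18 genes past 2-fold, and 9 with genes of at least 10 CPM, where fewer genes were counted. A ratio between the libraries could not be recomputed without a library. No paired analysis was possible because both libraries belong to 1 group. The 2 libraries limit every SD to 1 degree of freedom, and depth limits *Myl9* and *Cnn1*.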

Other observations

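Other cytoskeletal genes were read from lists chosen after the data were seen. Of 11 tubulins averaging 1 CPM or more, *Tubb3* and *Tubb6* were past 2-fold higher in replicate 2, at 0.555 and 4.39 CPM and at 25.7 and 84.0 CPM. *Tubb2a* and *Tubb2b* were past 2-fold lower, at 457 and 198 CPM and at 68.4 and 16.8 CPM. Over all genes the shares were 7.43% higher and 6.06% lower, and counts this small cannot be set apart from them. *Tubb5* was at 129 and 235 CPM and not past 2-fold.

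Of 8 septins, which form filaments beside actin, *Septin6* was past 2-fold higher, at 2.13 and 7.69 CPM, and 0 were lower. These counts are near the 7.43% and 6.06% of all genes. Of 12 genes that bundle filaments or link them to the membrane, 5 were past 2-fold higher and 0 lower, where 7.43% of all genes were past 2-fold higher and 6.06% lower. They were the annexins *Anxa1*, at 53.1 and 265 CPM, and *Anxa2*, at 108 and 277 CPM, the calcium-binding *S100a4*, at 1.99 and 5.91 CPM, and *S100a6*, at 40.7 and 129 CPM, and *Marcks*, at 11.9 and 37.5 CPM. *Msn*, moesin, was at 253 and 498 CPM and not past 2-fold.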
